A study of Mus musculus with 24 samples.

Results

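The genes described here encode the proteins of the cytosolic ribosome. They were every row of the raw count tables whose symbol is Rpl or Rps followed by a number, with at most a single further letter (a, x, y or l) and digit, or is Rplp0, Rplp1, Rplp2 or Rpsa. Rows marked -ps, which name pseudogene copies, and the S6 kinase genes fell outside this rule. Of 27179 rows, 85 matched, 51 of them for the large subunit and 34 for the small subunit. In each of 3 stages, 83 of the 85 reached 0.5 CPM (counts divided by the library total and scaled up) in at least 2 of the 8 libraries and were tested. Rpl3l and Rpl10l, paralogues of Rpl3 and Rpl10, held at most 8 and 1 counts in any library and were kept in none. RefSeq annotates 2 of the 83, Rps4y2 on chromosome 6 and Rps12l2 on chromosome 8, as pseudogenes.

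The small subunit of the ribosome decodes the messenger RNA and the large subunit joins the amino acids. Most mRNAs of ribosomal proteins begin with a C followed by a run of pyrimidines, through which mTOR signalling controls their translation, and lymphocytes that leave quiescence make many new ribosomes. The mammalian genome also holds a large number of processed pseudogenes of these genes.

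RNA from lymph node B cells of C57BL/6 mice was sequenced to follow the loss of PU.1 (gene Spi1) and SpiB (gene Spib), a pair of related transcription factors of the ETS family. There were 24 libraries, a pair per genotype and stage, with 4 genotypes. Control mice were Cd23T/+, with a Cre transgene under Cd23 regulatory sequences, which are active in B cells from the transitional stage onwards. PU.1 cKO mice carried Spi1fl/fl with Cd23T/+, and PU.1 SpiB DKO mice carried Spib-/- in addition. SpiB KO mice were Spi1fl/fl and Spib-/- with Cd23+/+, so they held the floxed alleles but no Cre, whereas controls held Cre but no floxed allele. The stages were naive cells and cells kept for 48 h in CD40L + IL-4 or in LPS + IL-4. The study describes the libraries of a group as biological replicates and matched mice for age and sex within an experiment. The number of mice behind a library was not given in the sources used here, and the age is not on the labels. The study also notes, from read coverage, that naive PU.1 SpiB DKO cells still held part of the floxed Spi1 exon, whereas in both cultures it describes that exon as deleted with high efficiency. The cells for RNA were sorted as B220+ and negative for CD3 and CD138, a gate that would remove most T cells and plasma cells.

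Library totals were 14231188 to 18194629 counts in naive cells, 9598674 to 61640683 in CD40L + IL-4 and 22757630 to 73658850 in LPS + IL-4. In naive cells Spi1 stood at 155 and 174 normalised CPM in control libraries, at 59.5 and 53.2 in those of PU.1 cKO, at 163 and 163 in those of SpiB KO and at 103 and 110 in the double mutants. Spib stood at 1472 and 1354 in control libraries, at 2175 and 1922 in those of PU.1 cKO, at 85.6 and 80.2 in those of SpiB KO and at 98.8 and 100 in the double mutants, so each was lower where the labels place its loss. Spi1 was 25.6 to 46.9 CPM in both genotypes with loss of PU.1 after CD40L + IL-4 and 84.8 to 110 in the others. After LPS + IL-4 it was 44.2 and 41.2 in PU.1 cKO but 63.9 and 58.8 in PU.1 SpiB DKO, where it overlapped the 72.0 and 60.7 of control, so in that group the gene-level count of Spi1 does not separate mutant from control. These counts cannot show the floxed exon by itself. In the cultures Spib was 9.05 to 37.0 CPM in both genotypes with Spib-/- and 178 to 525 in the others. All 8 B cell markers were detected at every stage. The summed level of 10 plasmacytoid dendritic cell markers was 2159 to 2625 CPM in naive control and PU.1 cKO and 4459 to 5056 in naive SpiB KO and PU.1 SpiB DKO, and 9 T cell markers summed to 73.4 to 121 against 414 to 645. The 10 macrophage markers present summed to 13.4 to 23.9 against 53.9 to 78.7 CPM, with C1qb, Cd14 and Mertk under 0.5 CPM in all 8 naive libraries. For naive cells without SpiB the study proposes that B cells themselves express genes of these lineages, which SpiB would otherwise repress. Whether the marker counts came from B cells or from other cells was not tested, nor was their part in the naive results. In bulk RNA fewer cells of a type and less RNA per cell cannot be told apart. The sources used here give no preparation or sequencing batch of the libraries.

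Many of these genes share nearly all their coding sequence with copies elsewhere, which limits what can be counted when only uniquely mapped reads are kept. The pair Rpl39 and Rpl39l is shown first, because the level of Rpl39 moved most between stages. Both code for a short protein at the exit tunnel of the large subunit, and 130 of their 153 coding bases (84.97%) are identical. Coding bases 63 to 92 of each follow, read in the gene's direction from GENCODE vM21 on GRCm38, with the 6 differing bases in capitals. The Rpl39 stretch lies in exon 2 on the minus strand of chrX:37084000-37084029 and occurs in 3 other genes, and the Rpl39l stretch lies in exon 3 on the plus strand of chr16:10174372-10174401 and occurs in none.
Rpl39: CccTattccTcaGtggatCcGgatgaaaac
Rpl39l: TccCattccAcaAtggatTcAgatgaaaac

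The middle 30 coding bases of 4 further genes show the range of copying. Those of Rpl8 (chr15:76904909-76904938, plus strand, exon 4) and of Rps27l (chr9:66947615-66947644, plus strand, exon 3) occurred in no other annotated gene. The stretch of Rpl36a (chrX:134586546-134586575, plus strand, exon 3) occurred in 3 others and that of Rps2 (chr17:24721019-24721048, plus strand, exon 4) in 24 others. Rpl36a and Rps2 are the genes that rose and fell most in naive PU.1 cKO cells.
Rpl8: caagctggcccgagcctccgggaactacgc
Rps27l: ccatgcacagactgtggttctttgtgtggg
Rpl36a: ggtgggcagactaagcctattttccgcaaa
Rps2: gtgctccaaggaggttgccactgccatccg

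Promoters were searched because PU.1 and SpiB bind DNA with a GGAA core. RefSeq windows on GRCm38.p6, running from 250 bases before to 50 bases after a start, were given for 63 of the 85 genes, 75 windows in all, and were compared with 32851 windows of all genes on both strands. The letters GAGGAAGT, of the kind PU.1 prefers, stood in 3 of the 75 windows (4%; 3.20% of all windows), those of Rpl13a, Rpl35 and Rpl36a. The letters CCGGAAGT, common to many ETS factors, stood in 12 of the 75 (16%; 3.89% of all). Its inner part CGGAAG, which overlaps the longer motif, stood in 45 (60%; 16.9% of all). A C followed by 5 pyrimidines within 3 bases of the start was found in 24 windows (32%; 7.21% of all). Rpl36a and Rpl13a, a rise and a fall among the naive mutants, are printed with GAGGAAGT in capitals, written ACTTCCTC where it lies on the other strand, and Rps18 and Rps6 with CCGGAAGT. A match describes letters only and was not tested as a binding site. The windows lie at chrX:134585476-134585505 (plus strand) for the first of 2 matches of Rpl36a, chr7:45128771-45128800 (minus) for Rpl13a, chr17:33955722-33955751 (minus) for Rps18 and chr4:86857440-86857469 (minus) for Rps6.
Rpl36a: gcgctgggcggGAGGAAGTggagccgatgg
Rpl13a: ccgtctgcgtcACTTCCTCcgcccctgcag
Rps18: agaagcaatttCCGGAAGTggacctccggg
Rps6: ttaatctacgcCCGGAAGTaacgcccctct

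Levels per gene length spread widely in resting cells. In naive control cells the deposited log2 RPKM of the 83 genes ran from -0.88 to 12.15, with a median of 8.35. The highest were Rplp1, a protein of the acidic stalk that recruits elongation factors, at 12.15 in both libraries, Rps15, at the decoding side of the small subunit, at 12.09 ± 0.09 (SD, n = 2), and Rpl8, near the peptidyl transferase centre, at 11.89 ± 0.05. The Rps15 libraries, at 12.03 and 12.15, did not lie apart from Rplp1, while both Rpl8 libraries, at 11.86 and 11.93, lay below both of Rps15. The study's methods name quantile normalisation, which can set values of libraries equal, and Rpl7, Rpl32 and Rps16 had an SD of 0 like Rplp1. Scaled by TMM over all 24 libraries, Rplp1 stood at 2751 and 2379 CPM in naive control. These SDs therefore do not measure the full spread between libraries. The lowest were the pseudogene Rps4y2 at 3.34 ± 0.17, Rpl39 at 0.91 ± 0.89 and Rpl39l at -0.88 ± 0.69. Rpl39 held 5 to 21 counts and Rpl39l 3 to 11 in a naive library, so these 2 levels rest on few reads. Of all counts on the genes, the 10 highest took 49.98% to 51.5% in naive libraries, led by Rps3 in each of the 8.

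Of the 81 genes with a matched coding transcript, a median of 90.3% of the 50-base stretches of the coding sequence also occurred in another gene, and in 30 genes all of them did. The same median was 31.6% over 22 other translation genes, and 0 over 29 ribosome biogenesis genes and over 76 mitochondrial ribosomal protein genes. Across the 81 genes the shared percentage and the naive control log2 RPKM had a Spearman rho of -0.68, and it was -0.68 in both cultures as well. This is a description across genes that share libraries and annotation. Reads that fit 2 genes equally were not counted, and the part of copying in the levels was not tested. The 26 -ps rows outside the rule summed to 910 and 1019 CPM in naive control, 1331 and 1390 in naive PU.1 cKO and 635 to 707 in the 8 LPS + IL-4 libraries. Among them, Rps15a-ps8 had means of 65.6, 33.5 and 30.95 CPM in PU.1 cKO (naive, CD40L + IL-4, LPS + IL-4). All other groups, the double mutant included, lay at 0.299 to 0.988. Rps15a-ps6 had 43.7, 48.9 and 53.02 CPM in PU.1 cKO and 4.03 to 17.3 in the other groups. Whether loss of PU.1 or another difference between the mouse lines lies behind changes seen only in PU.1 cKO was not tested.

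**Figure D1:**
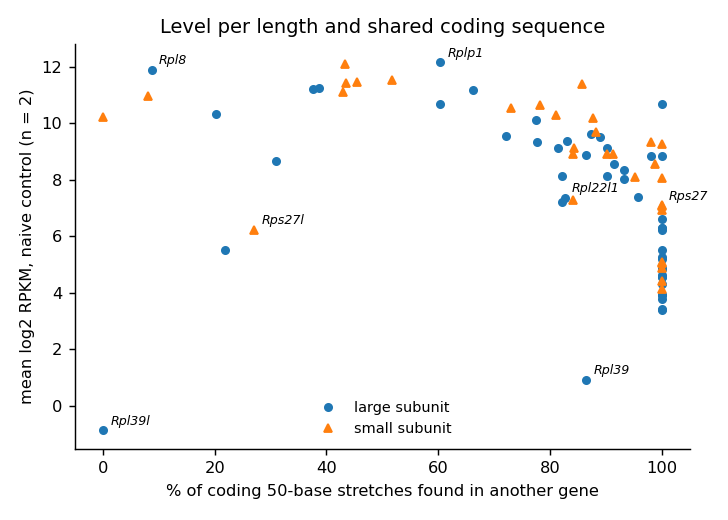
Mean deposited log2 RPKM in the 2 naive control libraries (vertical axis) against the percentage of coding 50-base stretches that also occur in another annotated gene (horizontal axis), 1 point for each of 81 genes, circles for the large and triangles for the small subunit. The 30 fully shared genes stand at the right edge, with a median of 5.06 against 9.35 for the other 51, but Rpl41, Rps16 and Rpl19 among them lie above the median of all 81, and Rpl39l at the lower left is low without shared stretches.

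The share of a library's counts on all 85 genes differed by stage and, in naive cells, by genotype. In naive cells it was 4.79% ± 0.139 (SD, n = 2) for control, 6.40% ± 0.412 for PU.1 cKO, 5.04% ± 0.473 for SpiB KO and 5.22% ± 0.759 for the double mutant. Both PU.1 cKO libraries, at 6.69% and 6.11%, lay above the other 6, which ran from 4.68% to 5.76%. After CD40L + IL-4 the control libraries lay at 3.46% and 4.59%, wider apart than the means of the 4 genotypes, which were 4.02% to 4.38%. After LPS + IL-4 the share was 3.06% ± 0.0111 for control, 2.70% ± 0.0127 for PU.1 cKO, 3.11% ± 0.192 for SpiB KO and 2.99% ± 0.181 for the double mutant, and here both PU.1 cKO libraries lay below the other 6. No test was made, since the smallest p of an exact permutation test (two-sided) between pairs of libraries is 0.333. In naive cells the library of replicate 1 had the higher share in all 4 genotypes.

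The ratio of summed counts between the subunits, in which abundant genes weigh most, differed as well. Counts on large subunit genes divided by those on small subunit genes gave 1.01 and 1.04 in naive control and 1.06 and 1.10 in naive PU.1 cKO. In CD40L + IL-4 cultures the ratio was 1.25 and 1.22 in control and 1.29 and 1.35 in PU.1 cKO, and in LPS + IL-4 cultures 1.32 and 1.30 against 1.41 and 1.42. PU.1 cKO thus lay above control without overlap at each stage. Gene by gene the subunits lay closer. In PU.1 cKO the median log2 fold changes of large and small subunit genes were 0.41 and 0.40 in naive cells. They were 0.08 and 0.05 after CD40L + IL-4 and -0.15 and -0.18 after LPS + IL-4. The double mutant did not lie above control in this ratio of counts. It stood at 1.01 and 1.07 in naive cells, where it overlapped control, at 1.22 and 1.20 after CD40L + IL-4 and at 1.31 and 1.26 after LPS + IL-4. In SpiB KO the ratio was 0.976 and 1.04 in naive cells, 1.22 and 1.22 after CD40L + IL-4 and 1.34 and 1.27 after LPS + IL-4.

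**Figure D2:**
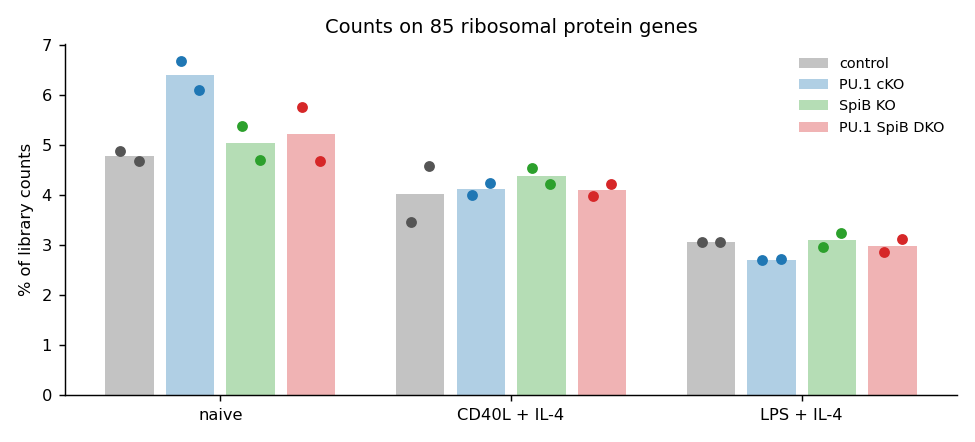
Percentage of each library's counts that fell on the 85 ribosomal protein genes (vertical axis), by stage and genotype, with points for the 2 libraries and bars for their mean. Naive PU.1 cKO stands highest at 6.40% and LPS + IL-4 PU.1 cKO lowest at 2.70%.

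In naive cells, PU.1 cKO had higher levels of ribosomal protein mRNAs of both subunits. Against control, 33 of the 83 genes rose and 1 fell in PU.1 cKO (edgeR's quasi-likelihood test, Benjamini-Hochberg adjusted p under 0.15, called from here on), where 17.2% of all 12500 genes tested were called, 7.41% as higher and 9.84% as lower. Their median log2 fold change was 0.41, against -0.01 over all genes, and 78 of the 83 lay above 0 where 48.5% of all genes did. The large subunit gave 21 rises and the small subunit 12 rises and the fall, with medians of 0.41 and 0.40. With a fold change over 1.5 as well, 12 genes were called (10.7% of all genes). Among the 14 genes with at most 50% of their coding stretches shared, 5 rose and the median was 0.39, and among the 30 fully shared 12 rose with a median of 0.47.

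The plasma cell list, of which Tnfrsf17 was under 0.5 CPM in all naive libraries, summed to 753 and 755 CPM in naive control and 959 to 1201 in the other 6, and its part in this result was not tested. The count depended on single libraries: it was 6 without PU.1 cKO replicate 1, 10 without PU.1 cKO replicate 2 and 12 without control replicate 2. The median held at 0.32 to 0.52 when any of the 4 libraries was left out.

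Rpl36a, a large subunit protein, rose most, and all its coding 50-base stretches occur in other genes. It stood at 6.37 and 6.26 normalised CPM in control libraries, at 19.99 and 13.6 in those of PU.1 cKO, at 10.3 and 7.82 in those of SpiB KO and at 13.3 and 12.1 in the double mutants. Control lay below all 6 mutant libraries. PU.1 cKO had a log2 fold change of 1.41 ± 0.23 (SE) (edgeR adjusted p = 0.0077) and 1.01 ± 0.23 in PU.1 SpiB DKO (edgeR adjusted p = 0.016), and both calls held whichever library was left out.

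Rpl38 and Rps12 also rose by more than 1 and were chosen here after their values were seen. Rpl38, a large subunit protein known for its part in the translation of Hox mRNAs, stood at 12.5 and 11.7 CPM in control libraries and at 21.8 and 37.8 in those of PU.1 cKO, a log2 fold change of 1.30 ± 0.25 (edgeR adjusted p = 0.014), while SpiB KO and PU.1 SpiB DKO lay at 12.2 to 15.2. Rps12, of the small subunit, stood at 11.3 and 8.17 CPM in control libraries and at 21.3 and 20.3 in those of PU.1 cKO, with a log2 fold change of 1.10 ± 0.21 (edgeR adjusted p = 0.014). Without overlap in either case, the PU.1 cKO libraries were the highest of the 8. The pseudogene Rps12l2 was called as well, with a log2 fold change of 1.23. All coding 50-base stretches of Rpl38 and of Rps12 occur in other genes.

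Several members with a role of their own rose by less. Rps6, the substrate of the S6 kinases, stood at 47.1 and 40.9 CPM in control libraries, at 64.7 and 67.4 in those of PU.1 cKO, at 47.1 and 47.3 in those of SpiB KO and at 56.3 and 57.7 in the double mutants. PU.1 cKO had a log2 fold change of 0.59 ± 0.12 (edgeR adjusted p = 0.020), and without PU.1 cKO replicate 2 the adjusted p was 0.16. Rpl5, which with the 5S rRNA and Rpl11 can bind Mdm2, stood at 27.2 and 29.1 CPM in control libraries and at 52.5 and 43.6 in those of PU.1 cKO, a log2 fold change of 0.77 ± 0.21 (edgeR adjusted p = 0.055; 0.31 without PU.1 cKO replicate 1). Rpl11 was not called, with 9.31 and 16.4 CPM in control libraries and at 11.7 and 11.4 in those of PU.1 cKO. Rplp0, the base of the stalk, stood at 2645 and 2335 CPM in control libraries and at 3632 and 3337 in those of PU.1 cKO, with a log2 fold change of 0.48 ± 0.16 (edgeR adjusted p = 0.11), a call lost without control replicate 2 or either PU.1 cKO library (edgeR adjusted p 0.25 to 0.41). Rplp1, Rplp2, Rpsa and Rps3 were not called.

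Rps2, a small subunit protein at the mRNA entry, was the fall. It stood at 564 and 396 CPM in control libraries, at 136 and 310 in those of PU.1 cKO, at 598 and 486 in those of SpiB KO and at 640 and 455 in the double mutants, so both PU.1 cKO libraries were the lowest of the 8. It fell by 1.11 on the log2 scale (SE 0.34, edgeR adjusted p = 0.084). The adjusted p was 0.18 without control replicate 1 and 0.35 without PU.1 cKO replicate 1.

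In naive SpiB KO a single gene was called, where 12.6% of all genes were. Rpl13a, a large subunit protein that also joins an interferon-induced complex that inhibits translation, stood at 2815 and 2706 CPM in control libraries, at 2069 and 1995 in those of SpiB KO, at 2235 and 1758 in the double mutants and at 3574 and 3259 in those of PU.1 cKO. The genotypes with Spib-/- lay below control and PU.1 cKO above it, without overlap. It fell by 0.44 in SpiB KO (SE 0.14, edgeR adjusted p = 0.097), and in the double mutant by 0.47 (SE 0.14, edgeR adjusted p = 0.039). The first call was lost without control replicate 2 or either SpiB KO library (edgeR adjusted p 0.23 to 0.37) and the second without PU.1 SpiB DKO replicate 2 (0.15). The count in SpiB KO was 9 without control replicate 1, 0 without control replicate 2 or SpiB KO replicate 2, and 1, a rise of another gene, without SpiB KO replicate 1. The median over the 83 genes was 0.06, and -0.05 without SpiB KO replicate 1.

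In naive PU.1 SpiB DKO, 7 genes rose and 2 fell, where 34.8% of all genes were called, and the median of the 83 was 0.10, and -0.09 without PU.1 SpiB DKO replicate 1. Besides Rpl36a and Rpl13a, Rps27 was the named call: it stood at 48.3 and 114 CPM in control libraries, at 61.6 and 72.1 in those of PU.1 cKO, at 56.5 and 67.6 in those of SpiB KO and at 46.6 and 34.4 in the double mutants. It fell by 1.0005 on the log2 scale (SE 0.33, edgeR adjusted p = 0.059), and this rested on control replicate 2, without which it was -0.25 (edgeR adjusted p = 0.47), and the adjusted p was 0.20 without PU.1 SpiB DKO replicate 2. Leaving out control replicate 1 gave a count of 14, control replicate 2 a count of 2 and PU.1 SpiB DKO replicate 2 a count of 16.

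Compared directly, PU.1 SpiB DKO lay below PU.1 cKO in naive cells. Of the 83 genes, 21 were lower and 2 higher in PU.1 SpiB DKO (18.1% of all genes called, 6.30% as lower), with a median of -0.36 against 0.01 over all genes. Rpl38 fell by 1.12 (SE 0.24, edgeR adjusted p = 0.015) and Rps2 was higher by 1.30 ± 0.34 (edgeR adjusted p = 0.038). The count was 4 without PU.1 cKO replicate 1, 10 without PU.1 cKO replicate 2, 44 without PU.1 SpiB DKO replicate 1 and 6 without PU.1 SpiB DKO replicate 2. The median lay between -0.54 and -0.19 in these 4 fits. Over all 4 genotypes together, 35 of the 83 genes differed (31.1% of all genes), 8 without PU.1 cKO replicate 1, 13 without PU.1 cKO replicate 2 and 22 without SpiB KO replicate 2.

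**Figure D3:**
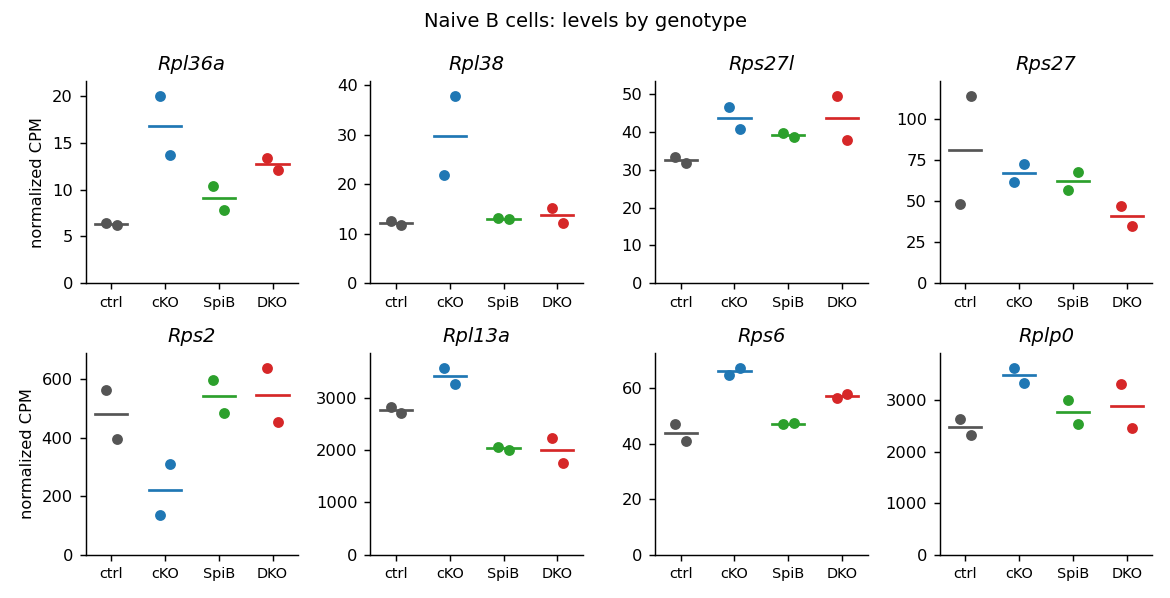
Normalised CPM (vertical axes, from 0) of 8 genes in the 8 naive libraries, by genotype (ctrl, control; cKO, PU.1 cKO; SpiB, SpiB KO; DKO, PU.1 SpiB DKO), with points for the 2 libraries and a line at their mean. Rpl36a, Rpl38, Rps6 and Rplp0 are highest in PU.1 cKO, Rps2 is lowest there, Rpl13a is lowest in both genotypes with Spib-/-, and 1 control library of Rps27 stands apart at 114.

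After CD40L + IL-4 few ribosomal protein genes differed by genotype. In PU.1 cKO 5 rose and 2 fell (16.6% of all 12721 genes called), none was called in SpiB KO (0.134% of all), and for PU.1 SpiB DKO 3 rose and 1 fell (25.2% of all). In SpiB KO, edgeR called 0 of the 83, DESeq2 0 and limma's voom 0, and 3 had an unadjusted p under 0.05. The medians were 0.07, 0.12 and 0.06, and each turned below 0 without control replicate 1 (-0.15, -0.08 and -0.14). The count in PU.1 cKO was 2 without control replicate 1 and 3 without PU.1 cKO replicate 2. In PU.1 SpiB DKO, leaving out control replicate 1 gave 2, control replicate 2 gave 13, and it was 2 without PU.1 SpiB DKO replicate 2. The plasma cell list summed to 1632 and 1948 CPM in control, 1671 and 2293 in SpiB KO and 2788 to 4156 in the genotypes that had lost PU.1, and its part in these results was not tested.

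Rps27l, a paralogue of Rps27 known as a target of p53, rose in both genotypes that had lost PU.1. It stood at 65.8 and 86.3 CPM in control libraries, at 110 and 127 in those of PU.1 cKO, at 67.4 and 91.2 in those of SpiB KO and at 122 and 157 in the double mutants, without overlap between the genotypes with and without PU.1. PU.1 cKO had a log2 fold change of 0.64 ± 0.21 (edgeR adjusted p = 0.086) and 0.88 ± 0.21 in PU.1 SpiB DKO (edgeR adjusted p = 0.019). Without control replicate 1 the adjusted p was 0.33 and 0.15, and the PU.1 cKO call was also lost without PU.1 cKO replicate 2 (0.40). In naive cells Rps27l rose too, by 0.42 ± 0.15 in PU.1 cKO (edgeR adjusted p = 0.14), and in the double mutant by 0.42 ± 0.15 (edgeR adjusted p = 0.083). The first naive call was lost without control replicate 2 or either PU.1 cKO library (edgeR adjusted p 0.24 to 0.52), and the second without control replicate 2 (0.22) or PU.1 SpiB DKO replicate 1 (0.49).

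The pseudogene Rps4y2 fell most in both. It stood at 10.3 and 9.53 CPM in control libraries, at 2.91 and 3.60 in those of PU.1 cKO, at 4.24 and 4.76 in those of SpiB KO and at 4.96 and 4.95 in the double mutants. Both controls thus lay above every mutant library, and all mutants were compared with the same controls. In SpiB KO the log2 fold change of Rps4y2 was -1.13, a larger fall than in the double mutant, but it was not called. It fell by 1.57 in PU.1 cKO (SE 0.26, edgeR adjusted p = 0.0034), and in the double mutant by 0.997 (SE 0.26, edgeR adjusted p = 0.029), whichever library was left out. Rpl28, a large subunit protein, had the largest rise in PU.1 cKO. It stood at 15.2 and 24.3 CPM in control libraries and at 28.3 and 44.4 in those of PU.1 cKO, without overlap, with a log2 fold change of 0.90 ± 0.27 (edgeR adjusted p = 0.067; 0.31 without control replicate 1 and 0.51 without PU.1 cKO replicate 2).

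Rps18, at the head of the small subunit, was lower in PU.1 cKO of both cultures. After CD40L + IL-4 it stood at 342 and 509 CPM in control libraries, at 254 and 113 in those of PU.1 cKO, at 537 and 443 in those of SpiB KO and at 448 and 409 in the double mutants. It fell by 1.22 in PU.1 cKO (SE 0.32, edgeR adjusted p = 0.038; 0.22 without control replicate 2 and 0.23 without PU.1 cKO replicate 2). It was also the only 1 of the 83 called between the double mutant and PU.1 cKO in this culture (4.23% of all genes), higher in PU.1 SpiB DKO by 1.23 ± 0.32 (edgeR adjusted p = 0.091). That count was 2 without PU.1 cKO replicate 1 and 0 without PU.1 cKO replicate 2 or either PU.1 SpiB DKO library. Over all 4 genotypes, 5 of the 83 differed (22.4% of all genes), and 3 without PU.1 cKO replicate 2.

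After LPS + IL-4 the direction in PU.1 cKO was the opposite of that in naive cells. None of the 83 genes rose and 11 fell (19.0% of all 12445 genes called, 7.80% as lower), with a median of -0.15 against 0.00 over all genes, and 76 of the 83 lay below 0. Of the 11, 4 were of the large and 7 of the small subunit. Over all genes, same-numbered libraries deviated together in this culture. Over the 83 genes alone the correlation of these deviations was -0.085 for control and PU.1 cKO. With the number as a block 36 genes fell and 0 rose (29.8% of all genes called in that fit, 13.3% as lower). The count without a block was 6 without control replicate 1 and 5 without PU.1 cKO replicate 1, and the median lay between -0.21 and -0.12. The plasma cell list summed to 1147 and 1217 CPM in control, 1219 and 1283 in SpiB KO, 1828 and 1980 in PU.1 cKO and 2587 and 2597 in PU.1 SpiB DKO, and its part in these results was not tested.

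Rps18 fell most. It stood at 222 and 246 CPM in control libraries, at 71.7 and 115 in those of PU.1 cKO, at 226 and 237 in those of SpiB KO and at 247 and 233 in the double mutants, so the double mutant lay at the level of control. It fell by 1.33 in PU.1 cKO (SE 0.18, edgeR adjusted p = 0.0014) and was higher in PU.1 SpiB DKO than in PU.1 cKO by 1.36 ± 0.18 (edgeR adjusted p = 0.0020). Rps2 had the same order, at 745 and 852 CPM in control libraries, at 467 and 414 in those of PU.1 cKO, at 651 and 885 in those of SpiB KO and at 663 and 852 in the double mutants. It fell by 0.86 in PU.1 cKO (SE 0.16, edgeR adjusted p = 0.0084) and was higher in PU.1 SpiB DKO than in PU.1 cKO by 0.78 ± 0.16 (edgeR adjusted p = 0.012). For Rps18 and Rps2 the PU.1 cKO libraries were the lowest 2 of the 8 in naive and LPS + IL-4 cells alike. In coding sequence they share 87.7% (Rps18) and 84.1% (Rps2) of 50-base stretches with other genes. Neither call against control in LPS + IL-4 cells was lost when a library was left out. Whether these falls in PU.1 cKO came from loss of PU.1 or from another feature of those mice was not tested.

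Rpl23a, a large subunit protein at the exit of the tunnel, was lower in all 3 mutants of this culture. It stood at 16.98 and 13.9 CPM in control libraries, at 7.99 and 9.57 in those of PU.1 cKO, at 9.24 and 10.7 in those of SpiB KO and at 7.89 and 10.1 in the double mutants, so both controls lay above all 6 mutant libraries. It fell by 0.82 in PU.1 cKO (SE 0.17, edgeR adjusted p = 0.014), by 0.64 in SpiB KO (SE 0.18, edgeR adjusted p = 0.12), and in the double mutant by 0.78 (SE 0.18, edgeR adjusted p = 0.0082). These 3 comparisons share the 2 control libraries. In SpiB KO it was the only 1 of the 83 called (5.13% of all genes), with 2 called when the number was a block (14.2% of all). That call was lost without any of the 4 libraries (edgeR adjusted p 0.19 to 0.45), and the count was 2 without control replicate 1 and 0 without SpiB KO replicate 1, control replicate 2 or SpiB KO replicate 2. All its coding 50-base stretches occur in other genes.

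In PU.1 SpiB DKO 14 genes fell and 1 rose, where 47.9% of all genes were called and 22.4% as lower. The median was -0.07 (-0.02 without PU.1 SpiB DKO replicate 1 and -0.13 without replicate 2), and 68 of the 83 lay below 0. Rpl7l1, a paralogue of Rpl7 that acts in large subunit assembly, stood at 282 and 351 CPM in control libraries, at 293 and 302 in those of PU.1 cKO, at 294 and 295 in those of SpiB KO and at 215 and 240 in the double mutants. Both double mutant libraries were the lowest of the 8, and it fell by 0.48 (SE 0.11, edgeR adjusted p = 0.0081), whichever library was left out. Rps4y2 fell by 1.05 in PU.1 cKO (SE 0.27, edgeR adjusted p = 0.036; 0.19 without PU.1 cKO replicate 2) and by 0.61 in PU.1 SpiB DKO (SE 0.27, edgeR adjusted p = 0.11; 0.56 without PU.1 SpiB DKO replicate 1 and 0.35 without control replicate 2). Rpl10a, of the large subunit, was the rise, by 0.26 ± 0.11 (edgeR adjusted p = 0.10; 0.21 to 0.36 without control replicate 2 or either PU.1 SpiB DKO library). Rpl11 fell by 0.29 (SE 0.12, edgeR adjusted p = 0.088; 0.30 without control replicate 1 and 0.39 without PU.1 SpiB DKO replicate 1). The count was 4 without PU.1 SpiB DKO replicate 1 and 5 without control replicate 2.

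With PU.1 SpiB DKO set against PU.1 cKO in LPS + IL-4 cells, 9 genes were higher and 3 lower in the double mutant (36.3% of all genes called). With the block 29 were called, 23 of them higher (50.1% of all genes, 26.4% as higher). Over the 83 genes alone the deviations of same-numbered libraries of these genotypes had a correlation of -0.374. The median without a block was 0.09, and 0.0057 to 0.14 when a library was left out. Over all 4 genotypes 19 of the 83 differed (46.8% of all genes), 45 with the block (64% of all genes in that fit), 9 without PU.1 cKO replicate 1 and 11 without PU.1 SpiB DKO replicate 1. No gene of the 83 was called in PU.1 SpiB DKO at all 3 stages.

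**Figure D4:**
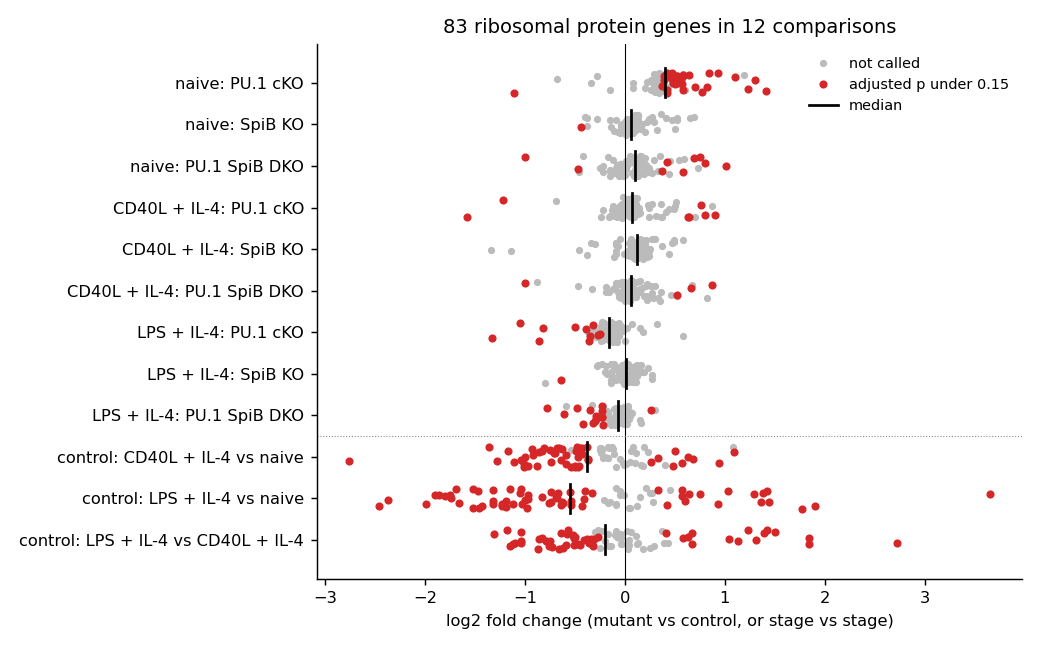
Log2 fold change (horizontal axis) of the 83 genes in 12 comparisons, 9 of a mutant with control at the same stage and, under the dotted line, 3 between stages in control, with called genes in red, others in grey and the median as a black bar. In naive PU.1 cKO the points lie mostly to the right of 0 (median 0.41), in LPS + IL-4 PU.1 cKO mostly to the left (median -0.15), and the stage comparisons reach from -2.76 to 3.66.

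The difference of the PU.1 cKO effect between stages was tested after these values were seen, in a fit of all 24 libraries. From naive to LPS + IL-4 the effect was lower for 23 of the 83 genes and higher for 0 (6.34% of all 13684 genes called, 2.53% as lower), with a median difference of -0.59 against 0.00 over all genes, and 80 of the 83 lay below 0. Rpl36a had a difference of -1.42 ± 0.30 (edgeR adjusted p = 0.016) and Rpl38 of -1.42 ± 0.31 (edgeR adjusted p = 0.018). The count was 40 without naive control replicate 1, 2 without naive PU.1 cKO replicate 1, 4 without naive control replicate 2, 12 without naive PU.1 cKO replicate 2, 6 without LPS + IL-4 PU.1 cKO replicate 1 or control replicate 2, and 14 without LPS + IL-4 PU.1 cKO replicate 2. The median lay between -0.73 and -0.49 in all 8 of these fits. From naive to CD40L + IL-4 cells 4 genes had a lower effect (8.98% of all genes called), and between the cultures 0 did (3.09% of all), with 9 at an unadjusted p under 0.05 and 1 called by voom. The first count was 34 without CD40L + IL-4 control replicate 1, 8 without naive control replicate 1, 1 without CD40L + IL-4 control replicate 2 or naive control replicate 2, and 2 without naive PU.1 cKO replicate 1 or 2 or CD40L + IL-4 PU.1 cKO replicate 2. The count of 0 became 1 without CD40L + IL-4 PU.1 cKO replicate 1 or control replicate 2.

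The effect of PU.1 SpiB DKO was compared between stages in the same fit. From naive to CD40L + IL-4 it differed for 6 genes, 3 in each direction (16.8% of all genes called), and 3 without naive control replicate 2. From naive to LPS + IL-4 it was lower for 11 and higher for 1 (29.6% of all genes), with a median difference of -0.24, which was -0.07 without naive PU.1 SpiB DKO replicate 1 and -0.40 without replicate 2. That count was 6 without naive PU.1 SpiB DKO replicate 1, 1 without naive control replicate 2, 3 without LPS + IL-4 PU.1 SpiB DKO replicate 1 and 5 without LPS + IL-4 control replicate 2. From CD40L + IL-4 to LPS + IL-4 it was lower for 8 and higher for 0 (28.6% of all genes). That count was 33 without CD40L + IL-4 control replicate 2, 3 without CD40L + IL-4 control replicate 1, 4 without LPS + IL-4 PU.1 SpiB DKO replicate 1 and 2 without LPS + IL-4 control replicate 2. Rps27l led these differences by p, with -1.11 ± 0.27 (edgeR adjusted p = 0.0096).

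Between stages in control cells the ribosomal protein genes changed in both directions, with more falls than rises. From naive to LPS + IL-4, 17 of the 83 rose and 48 fell, where 76.9% of all 13684 genes were called, 39.0% as higher and 37.9% as lower. The median was -0.55 against 0.01 over all genes. From naive to CD40L + IL-4, 9 rose and 43 fell (64.7% of all genes called, 32.7% as higher) with a median of -0.38, and from CD40L + IL-4 to LPS + IL-4, 15 rose and 36 fell (59.4% of all genes) with a median of -0.20. In that order 78.3%, 62.7% and 61.4% of the 83 were called, near the shares of all genes. These comparisons share control libraries between them. Marker lists moved with stage as well: in control, from naive to CD40L + IL-4 and LPS + IL-4, 7 cycling markers summed to 171 to 182, 2014 to 2783 and 3039 to 3136 CPM, the B cell markers to 10114 to 10809, 5934 to 7432 and 3380 to 4063 CPM, and the plasmacytoid dendritic cell markers to 2541 to 2625, 1346 to 1431 and 972 to 1113 CPM. Their part in the stage results was not tested. The medians of the large and small subunit were -0.21 and -0.74 from naive to LPS + IL-4. The 14 genes with at most 50% shared coding stretches had 3 rises, 10 falls and a median of -1.16, whereas the 30 fully shared genes had 12 rises, 10 falls and a median of 0.14.

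The CD40L + IL-4 counts leaned on its control libraries. From naive to CD40L + IL-4 it was 33 without CD40L + IL-4 control replicate 1, of which 12 rose, and the median was -0.13 without that library and -0.61 without CD40L + IL-4 control replicate 2. The median from CD40L + IL-4 to LPS + IL-4 was -0.45 without the first and turned to 0.06 without the second. From naive to LPS + IL-4 the count was 61 or 62 whichever library was left out. The share of counts on these genes was lower in both cultures than in naive control, with 3.46% and 4.59% after CD40L + IL-4 and 3.05% and 3.07% after LPS + IL-4 against 4.89% and 4.69%.

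Rpl39 rose most. It stood at 0.990 and 0.372 CPM in naive control, 1.19 and 1.43 after CD40L + IL-4 and 8.50 and 8.69 after LPS + IL-4, here normalised over all 24 libraries. The log2 fold change from naive to LPS + IL-4 was 3.66 ± 0.34 (edgeR adjusted p = 1.3e-08) and from CD40L + IL-4 to LPS + IL-4 2.72 ± 0.32 (edgeR adjusted p = 1.5e-06). On few counts it also rose from naive to CD40L + IL-4 by 0.94 ± 0.43 (edgeR adjusted p = 0.071), a call lost without CD40L + IL-4 control replicate 2 (0.22) or naive control replicate 2 (0.51). Its paralogue Rpl39l stayed under 1.24 CPM in every control library and was called in none of the 3 comparisons. At so few counts a change could be missed, and the courses of the pair were not tested against each other.

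Rps27 and Rps27l moved in opposite directions. Rps27, a zinc-binding small subunit protein, stood at 52.5 and 119 CPM in naive control, 11.5 and 13.8 after CD40L + IL-4 and 18.2 and 15.1 after LPS + IL-4. It fell by 2.76 (SE 0.30, edgeR adjusted p = 2.4e-07) and by 2.37 (SE 0.28, edgeR adjusted p = 3.4e-07), and both naive libraries lay above all 4 of the cultures. Rps27l rose along the same order, with 36.2 and 33.2, then 63.5 and 84.4, then 99.5 and 136 CPM. Its log2 fold changes were 1.09 ± 0.20 to CD40L + IL-4 (edgeR adjusted p = 0.00011), 1.77 ± 0.20 to LPS + IL-4 (edgeR adjusted p = 1.4e-07) and 0.68 ± 0.19 between the cultures (edgeR adjusted p = 0.0064). No Rps27l library of one stage overlapped those of another. All coding 50-base stretches of Rps27 and 27.1% of those of Rps27l occur in other genes.

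Rpl7 and its paralogue Rpl7l1 also moved in opposite directions from naive to LPS + IL-4. Rpl7 stood at 1213 and 1058 CPM in naive control, 780.0 and 980.3 after CD40L + IL-4 and 876 and 939 after LPS + IL-4, and it fell from naive to LPS + IL-4 by 0.32 (SE 0.13, edgeR adjusted p = 0.034; 0.23 without naive control replicate 1). Under voom with quantile normalisation that change was 0.01 and not called. Rpl7l1 stood at 119.6 and 119.8, then 149 and 152, then 271 and 347 CPM. Its log2 fold changes were 0.33 ± 0.14 (edgeR adjusted p = 0.050), 1.37 ± 0.14 (edgeR adjusted p = 4.2e-08) and 1.04 ± 0.14 between the cultures (edgeR adjusted p = 6.1e-06), with no overlap between stages.

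For Rpl22 and Rpl22l1, a pair known from lymphocyte development, both fell. Rpl22 stood at 974 and 824 CPM in naive control, 527 and 758 after CD40L + IL-4 and 388 and 378 after LPS + IL-4, and fell from naive to LPS + IL-4 by 1.23 (SE 0.17, edgeR adjusted p = 3.7e-06). Rpl22l1 stood at 101 and 61.5, 63.7 and 93.0, and 48.3 and 56.9 CPM, and fell by 0.62 (SE 0.22, edgeR adjusted p = 0.017; 0.42 without naive control replicate 1). In naive PU.1 cKO both rose, Rpl22 by 0.45 ± 0.16 (edgeR adjusted p = 0.13) and Rpl22l1 by 0.70 ± 0.22 (edgeR adjusted p = 0.090), and both calls were lost without control replicate 2 or either PU.1 cKO library (edgeR adjusted p 0.15 to 0.50). Rpl10 rose from naive to LPS + IL-4 by 0.64 ± 0.24 (edgeR adjusted p = 0.022), and Rpl3 was not called in that comparison.

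The largest fall to LPS + IL-4 was that of Rpl37a, a zinc-binding large subunit protein. It stood at 364 and 322 CPM in naive control, 118 and 164 after CD40L + IL-4 and 59.8 and 64.8 after LPS + IL-4, and fell by 2.46 (SE 0.19, edgeR adjusted p = 7.8e-10) from the first to the last. Rpl41, the shortest of these proteins, stood at 833 and 762, 578 and 841, and 289 and 286 CPM. It overlapped between naive cells and CD40L + IL-4 and fell from the latter to LPS + IL-4 by 1.30 (SE 0.17, edgeR adjusted p = 7e-06).

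Among members with a role of their own, Rpl5, Rpl11 and Rps6 rose to LPS + IL-4 while the stalk proteins Rplp1 and Rplp2 fell. Rpl5 stood at 29.6 and 30.5 CPM in naive control, 24.8 and 37.6 after CD40L + IL-4 and 73.1 and 89.7 after LPS + IL-4, a log2 fold change of 1.44 ± 0.21 from naive (edgeR adjusted p = 4.1e-06). Rpl11 stood at 10.1 and 17.2, 9.99 and 11.1, and 24.3 and 21.7 CPM, with 0.75 ± 0.20 (edgeR adjusted p = 0.0026). Rps6 stood at 51.2 and 42.8, 39.4 and 54.1, and 62.5 and 76.7 CPM, with 0.57 ± 0.17 (edgeR adjusted p = 0.0059). All coding 50-base stretches of these 3 genes occur elsewhere. Rplp2, of the stalk, stood at 1162 and 1089, 568 and 824, and 319 and 330.1 CPM and fell by 1.79 (SE 0.20, edgeR adjusted p = 1.3e-07). Rplp1 fell by 0.97 (SE 0.19, edgeR adjusted p = 0.00013). Rpsa, also known as the laminin receptor, fell by 0.54 (SE 0.18, edgeR adjusted p = 0.013).

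For some abundant genes the stage change differed under voom, which has another test and another normalisation, while with RLE factors or DESeq2 Rps3, Rpl8 and Rplp0 kept direction and call from naive to LPS + IL-4. Rps3, also known as a DNA repair endonuclease, stood at 4891 and 4065 CPM in naive control, 2570 and 3383 after CD40L + IL-4 and 2030 and 2335 after LPS + IL-4, and fell to LPS + IL-4 by 1.04 (SE 0.16, edgeR adjusted p = 1.5e-05), but under voom with quantile normalisation the change was -0.13 (limma adjusted p = 0.27). Rpl8 fell by 0.83 (SE 0.15, edgeR adjusted p = 7.7e-05), and under voom the change was 0.14 and not called. Rplp0 stood at 2876 and 2442, 2616 and 3344, and 2260 and 2484 CPM and was not called from naive to LPS + IL-4, while voom gave a rise of 0.72 (limma adjusted p = 3.8e-05). Over the 83 genes the voom median from naive to LPS + IL-4 was -0.44.

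**Figure D5:**
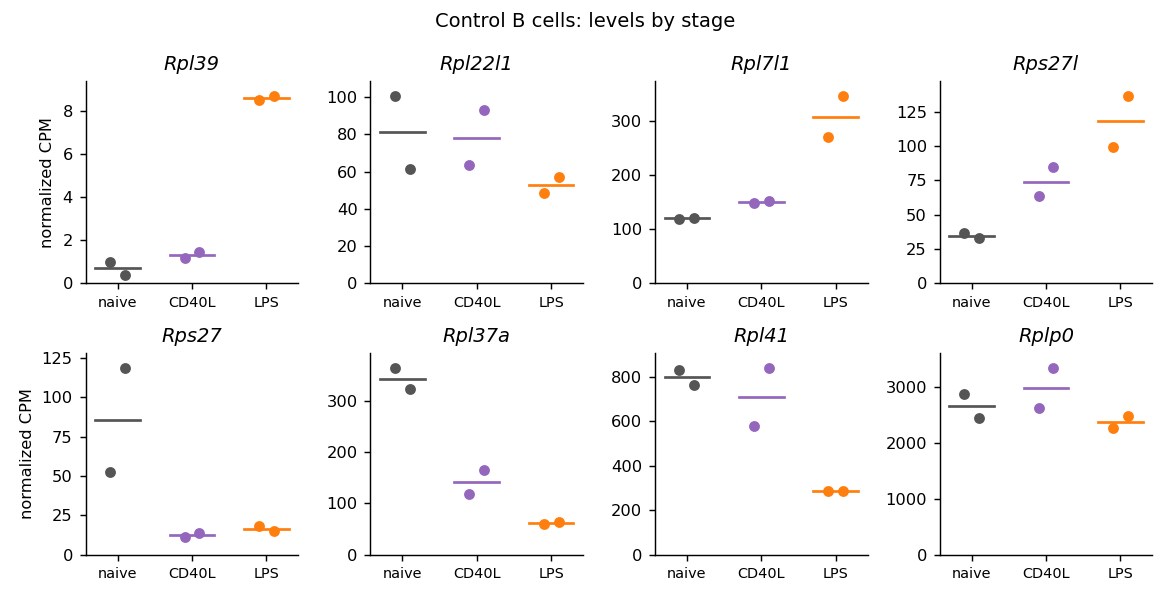
Normalised CPM (vertical axes, from 0) of 8 genes in the 6 control libraries by stage, with points for the 2 libraries and a line at their mean. Rpl39, Rpl7l1 and Rps27l are highest after LPS + IL-4, Rpl22l1, Rpl37a and Rpl41 are lowest there, Rps27 is highest in naive cells, and Rplp0 overlaps between naive cells and CD40L + IL-4.

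Genes with other roles in translation were counted in the same fits. In naive PU.1 cKO, 6 of 22 translation genes rose and 0 fell (median 0.26), 10 of 29 ribosome biogenesis genes rose and 1 fell (median 0.30), and 4 of 75 mitochondrial ribosomal protein genes tested rose (median 0.16), where 7.41% of all genes rose. In naive PU.1 SpiB DKO the mitochondrial list had 17 rises and 0 falls (median 0.19), where 18.2% of all genes rose. After LPS + IL-4, 28 of the 29 biogenesis genes fell in PU.1 SpiB DKO (median -0.57) and 42 of 75 mitochondrial genes fell (median -0.26), where 22.4% of all genes fell. In PU.1 cKO 1 and 3 of them fell (7.80% of all genes). In control cells 28 of 29 biogenesis genes and 59 of 75 mitochondrial genes rose from naive to LPS + IL-4, with medians of 2.19 and 0.85, where 39.0% of all genes rose and the median of the cytosolic ribosomal proteins was -0.55. The lists are described by their counts, with no test between them.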

How the data were processed

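Per the labels, RNA from 24 B cell libraries was sequenced after TruSeq preparation. According to the methods and the submitters' processing notes, the authors used Subread for alignment to mouse GRCm38 (mm10) and featureCounts for reads on exons of RefSeq genes, with multiply mapped reads left out. Versions and read length were not given in the sources used here. The deposited raw counts per gene were the values tested. The deposited log2 RPKM values, normalised by the authors for naive and CD40L + IL-4 cells together and for LPS + IL-4 cells separately, were used only for levels between genes within a table.

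Genes with 0.5 CPM in at least 2 libraries of a stage were scaled by TMM and tested with edgeR 4.0.16 (quasi-likelihood, R 4.3.3), 8 libraries and 4 genotypes per fit, and stages and differences of effects in 1 fit of 24 libraries and 12 groups. P-values were adjusted over all genes tested by the Benjamini-Hochberg method and called under 0.15. The study's own test, limma voom with quantile normalisation (limma 3.58.1), and DESeq2 1.42.0 were alternatives, beside RLE factors, no filter, a threshold of 0.05, other sets of libraries, removal of Rn45s or of the ribosomal protein genes from scaling, a replicate block and leaving out each library. SE is the fold change divided by the root of F. Scripts were tested on simulated data. The 517 rows without a symbol, with 0.162% of counts, carry a gene ID and were kept. Python 3.11.15, pandas 2.3.3, scipy 1.17.1, numpy 2.4.6 and matplotlib 3.10.9 were used for sequences and plots.

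Same-numbered libraries were compared by the correlation of their deviations from group means (log CPM, prior count 2). Over all genes it was 0.386 to 0.514 over the 6 pairs in LPS + IL-4 cells. It was 0.092 to 0.25 in naive cells and -0.070 to 0.27 after CD40L + IL-4. By this hint from all genes the numbers were taken to pair the libraries only in LPS + IL-4 cells. Results with the number as a block are given beside the main fits, which held no block at any stage. Over the ribosomal protein genes alone the correlations were -0.374 to 0.58 in LPS + IL-4 cells. They were 0.054 to 0.487 in naive cells and -0.228 to 0.395 after CD40L + IL-4. For these genes the hint thus did not single out LPS + IL-4 cells.

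Named genes were the largest called rise and fall of each genotype comparison and stage comparison, the paralogue pairs, the highest and lowest 3 by naive control log2 RPKM, and Rplp0, Rplp1, Rplp2, Rpsa, Rps6, Rpl5, Rpl11 and Rps3. Members and lists were chosen with earlier results of these data known. P-values measure the spread between these libraries only.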

Additional observations from a re-analysis of the deposited data

Results flagged for a closer look

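These results differ between stages by a test of the difference itself, the interaction of genotype and stage in 1 edgeR fit of 24 libraries. The PU.1 cKO effect was lower in LPS + IL-4 than in naive cells for 23 ribosomal protein genes, from Rpl23a (-1.44 on the log2 scale) to Rpl6 (-0.54), where 6.34% of all genes differed and 2.53% were lower. From naive to CD40L + IL-4 it differed for 4, from Rpl36a (-1.33) to Rpl29 (-0.56), a share below the 8.98% of all genes, and between the cultures for 0 (3.09% of all genes), with 9 at an unadjusted p under 0.05 in edgeR, 0 called by DESeq2 and 1 by voom.

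The PU.1 SpiB DKO effect differed from naive to CD40L + IL-4 for 6 genes, with Rps4y2 lowest (-1.42) and Rps27 highest (1.36), 7.23% of the 83 against 16.8% of all genes. From naive to LPS + IL-4 the PU.1 SpiB DKO effect differed for 12, with Rpl39 lowest (-1.13) and Rps27 highest (0.87), 14.5% against 29.6%. Both Rps27 differences include its naive fall, which rested on naive control replicate 2. The naive control libraries of Rps27 stood at 52.5 and 119 CPM. From CD40L + IL-4 to LPS + IL-4 the PU.1 SpiB DKO effect differed for 8, from Rpl39 (-1.24) to Rpl7l1 (-0.62), 9.64% against 28.6%. The differences in PU.1 cKO were added after values were seen.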

How the results depend on the processing

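With 2 libraries per group, counts of called genes moved more than medians. RLE factors, removal of Rn45s, scaling without these genes and, for stages, the 6 control libraries alone kept every count within 1.5 times. With no filter the counts were 56 in naive PU.1 cKO, 8 in naive SpiB KO, 55 between the naive PU.1 mutants and 63 over naive genotypes, then 11, 1, 4 and 10 after CD40L + IL-4, 20 in PU.1 cKO and 31 over genotypes after LPS + IL-4, and 20, 66 and 7 for the PU.1 cKO effect (CD40L + IL-4 against naive, LPS + IL-4 against naive, and between cultures). At an adjusted p under 0.05, naive counts were 10 (PU.1 cKO), 0 (SpiB KO), 3 (PU.1 SpiB DKO), 6 (between the PU.1 mutants) and 10 (any genotype). CD40L + IL-4 counts were 2, then 2 for PU.1 SpiB DKO, 0 and 3. LPS + IL-4 counts were 5, 0, 3, 3 and 9. PU.1 SpiB DKO effects gave 3, 3 and 3, and PU.1 cKO effects 1 and 3. DESeq2 gave 2 in naive SpiB KO, 35 and 2 between the PU.1 mutants in naive and CD40L + IL-4 cells, and 8 and 40 for the PU.1 cKO effect. Voom gave 19 in naive PU.1 SpiB DKO, 18, 26 and 30 in LPS + IL-4 cells (PU.1 cKO, between PU.1 mutants, any genotype) and 1 for the PU.1 cKO effect between cultures. One fit of 24 libraries gave 2 in naive SpiB KO, 7 in CD40L + IL-4 PU.1 SpiB DKO, and 3, 0, 4 and 3 in LPS + IL-4 PU.1 cKO, SpiB KO, PU.1 SpiB DKO and between PU.1 mutants. Only the 4 libraries compared gave 5 in naive and 9 in LPS + IL-4 PU.1 SpiB DKO, and 2 between PU.1 mutants after CD40L + IL-4. Without Rn45s the share of counts was 3.08% in LPS + IL-4 control and 2.76% in PU.1 cKO. The cause of these moves was not tested.

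With the replicate number as a block, counts were 70, 10, 25, 64 and 73 in naive cells (PU.1 cKO, SpiB KO, PU.1 SpiB DKO, between PU.1 mutants, any genotype), where 32.1%, 26.9%, 48.1%, 29.2% and 51.5% of all genes were called. They were 2 between PU.1 mutants after CD40L + IL-4, 36, 2, 29 and 45 after LPS + IL-4 (PU.1 cKO, SpiB KO, between PU.1 mutants, any genotype), 14 for the PU.1 SpiB DKO effect between cultures, and 17, 64 and 4 for PU.1 cKO effects. Every other count stayed within 1.5 times under the block.

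Leaving out each library gave ranges of 6 to 37, 0 to 9, 2 to 16, 4 to 44 and 8 to 52 in naive cells in the order above, 2 to 7 (PU.1 cKO), 2 to 13 (PU.1 SpiB DKO), 0 to 2 (between PU.1 mutants) and 3 to 7 (any genotype) after CD40L + IL-4, and 5 to 13, 0 to 2, 4 to 16, 7 to 9 and 9 to 26 after LPS + IL-4. For stages in control it gave 33 to 58 (CD40L + IL-4 against naive), 61 to 62 and 41 to 57. PU.1 SpiB DKO effects gave 3 to 9, 1 to 17 and 2 to 33, and PU.1 cKO effects 1 to 34, 2 to 40 and 0 to 1.

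Direction reversed from naive to CD40L + IL-4 for Rpl10a, which ranged over left-out libraries from -0.61 to 0.50 (highest without naive control replicate 1), and for Rpl11, from -0.71 to 0.054 (highest without naive control replicate 2). Under voom it reversed for Rplp1 (0.10) and Rpl8 (0.10) in that comparison, for Rpl7 (0.014), Rpl8 (0.14) and Rplp0 (0.72) from naive to LPS + IL-4, and for Rpl8 (0.044) and Rplp0 (0.040) between cultures. Depth limits Rpl39 and Rpl39l, with 5 to 21 and 3 to 11 counts in a naive library.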
